A study of Mus musculus with 6 samples.

Results

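The genes of TGF-β signalling described here were 3 ligands (Tgfb1, Tgfb2 and Tgfb3), 3 receptors (Tgfbr1, Tgfbr2 and Tgfbr3), 3 Smads (Smad2, Smad3 and Smad7) and the matrix gene Tgfbi. They were chosen by gene symbol, which found 10 of 10 among the 48440 genes of the count table, and all 10 were among the 15257 genes with enough reads to be tested. RNA came from implants of cartilage engineered from rabbit BMSCs (BEC), harvested with the murine tissue entangled with them. They had spent 12 weeks under the skin of BALB/c nude mice, an athymic strain that lacks mature T cells but keeps macrophages and NK cells. The study presents the profiles as those of murine tissue around BEC. Its methods give alignment to the mouse genome and no removal of rabbit RNA, so rabbit reads may be among the counts. In both groups BEC was wrapped in an electrospun PCL/collagen nanofibrous membrane, which held either no drug (0%-Axitinib group) or 3% by weight of axitinib, an inhibitor of VEGF receptors (3%-Axitinib group). Each group had 3 samples, and the comparison asked how the drug altered the surroundings of BEC. The first group is labelled as untreated and titled ctrl, and the study also had a Control group of BEC implanted with no membrane around it. The ctrl samples were nevertheless taken as the 0%-Axitinib group because the design text and the protocol of the series name membranes with 0% or 3% of the drug and no others, and every comparison rests on this reading. Before implantation, BEC of both groups had been cultured for 4 weeks in medium with 10 ng/mL of TGFβ1 protein. Each mouse received 2 constructs of the same group and is not named in the labels, so samples may share an animal and n counts samples. If they do, p-values measure only the spread between these samples. By the study's methods the mice were male and 6 to 8 weeks old when obtained, and from the counts the species of the cells cannot be read.

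TGF-β is secreted in a latent form that is held in the extracellular matrix by latent TGF-β binding proteins, and integrins or proteases release it. The free ligand binds the type II receptor Tgfbr2, which activates the type I receptor Tgfbr1, and this kinase phosphorylates Smad2 and Smad3, which enter the nucleus with Smad4. The pathway is known for inducing cartilage formation by mesenchymal stromal cells, matrix deposition by fibroblasts and the maturation of vessels.

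The reads counted on genes numbered from 9225518 to 18403795 per sample. Expression is given as CPM, the count scaled to the size of the library after TMM normalization, and 3 counts corresponded to 0.157 CPM in the deepest sample on this scale and 0.330 CPM in the shallowest. The lowest count of any of the 10 genes in a sample was 155 reads. Several libraries stood apart in the markers of other tissues. The skeletal muscle list summed to 14431 and 8042 CPM in 3%-Axitinib replicates 1 and 3, against 23.2 CPM in replicate 2 and 142, 9.04 and 15.4 CPM in the 0%-Axitinib samples. Its most abundant gene was Acta1, and 12 of its 14 tested genes were higher by the criterion given below (9.54% of all tested genes), but 0 with limma-voom. The cartilage list summed to 327, 211 and 229 CPM in the 0%-Axitinib group and to 351, 1605 and 689 CPM in the 3%-Axitinib group, with Comp as its most abundant gene and 6 of 10 tested genes higher. Here 3%-Axitinib replicate 2 stood above the others. The erythroid list, led by Hbb-bs, reached 22486 CPM in 0%-Axitinib replicate 3 and lay between 169 and 534 CPM elsewhere, and the epidermis list, led by Krt1, reached 1023 CPM in 0%-Axitinib replicate 2 and lay between 11.5 and 20.4 CPM elsewhere. Of these lists, 5 of 5 and 2 of 5 tested genes were lower (11.7% of all tested genes). Leaving out 0%-Axitinib replicate 3 left 1 of 5 erythroid genes lower, and leaving out 0%-Axitinib replicate 2 left 0 of 5 epidermis genes. DESeq2 gave 0 erythroid genes, and limma-voom gave 0 of both. With 3%-Axitinib replicate 1, 2 or 3 left out, 0 erythroid genes were lower in each fit, and 0, 0 and 1 epidermis genes. Without 0%-Axitinib replicate 1 or 3, 5 of 6 tested epidermis genes were lower.

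Markers of cell types of the tissue itself differed between the groups to unequal degrees. The endothelial list, led by Pecam1, summed to 871, 591 and 1046 CPM in the 0%-Axitinib group and to 192, 283 and 346 CPM in the 3%-Axitinib group. In it, 12 of 12 genes were lower (11.7% of all tested genes). Of the 12, 10 were lower with limma-voom and 9 to 12 with single samples left out, with 9 without 3%-Axitinib replicate 2. The leukocyte list, led by Laptm5, summed to 4666, 6734 and 7014 CPM and to 2994, 3125 and 5005 CPM in the same order, with 2 of 12 genes lower (11.7% of all tested genes) and 1 of 12 with a positive log2 fold change. The number lower was 4 with DESeq2, 5 with 0%-Axitinib replicate 1 left out, 4 with 3%-Axitinib replicate 3 left out, and 1 with 0%-Axitinib replicate 2 or 3%-Axitinib replicate 1 or 2 left out. The groups did not overlap in the endothelial sum, whereas the leukocyte sum of 3%-Axitinib replicate 3 lay above that of 0%-Axitinib replicate 1. B cell and plasma cell genes, led by Jchain, fell from 29.0, 116 and 461 CPM to 2.64, 3.74 and 2.14 CPM, and 7 of 7 tested genes were lower, but 3 of 7 with limma-voom, 5 of 7 with DESeq2 and 4 of 8 when 3%-Axitinib replicate 3 was left out. The T cell and NK cell list, led by Nkg7, stood at 9.76, 33.9 and 315 CPM in the 0%-Axitinib samples and at 5.61, 5.28 and 2.61 CPM in the others, with 6 of 6 tested genes lower, but 2 of 6 with limma-voom and 3 of 10 when 3%-Axitinib replicate 3 was left out. With the filter of at least 10 counts in every sample, 0 genes of this list or of the B cell and plasma cell list were tested. None of the 12 macrophage genes met the criterion given below, and their sum, led by Lyz2, was 11743, 12311 and 8740 CPM in the 0%-Axitinib group and 8506, 10965 and 16980 CPM in the 3%-Axitinib group. Fibroblast genes, led by Gsn, summed to 10599, 5446 and 4957 CPM and to 14885, 7181 and 15927 CPM in the same order, with 2 of 10 genes higher, against 9.54% of all tested genes, 4 higher when 0%-Axitinib replicate 1 was left out and 1 when 0%-Axitinib replicate 2 or 3%-Axitinib replicate 1 was. Pericyte and smooth muscle genes stood at 757, 527 and 604 CPM and at 1665, 515 and 1000.5 CPM. Of these, 1 of 11 was higher and 5 were lower, against 9.54% and 11.7% of all tested genes. Their most abundant gene was Des, which skeletal muscle expresses too. The adipocyte list, led by Fabp4, summed to 783, 734 and 971 CPM and to 645, 331 and 447 CPM, with 1 of 8 genes higher and 2 lower, against 9.54% and 11.7% of all tested genes. Both limma-voom and the fit without 3%-Axitinib replicate 1 gave 0 higher and 6 lower, and in the latter the median log2 fold change of the list was −2.91 in place of −1.17. No gene of these lists was at 0 in every sample. In bulk RNA, fewer cells of a type and less RNA per cell cannot be told apart. The part of these cell types in the results that follow was not tested, apart from the fits without single samples.

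The 10 genes did not move in one direction. Tgfb2 rose and Tgfbr1 and Smad2 fell in the 3%-Axitinib group, and the other 7 did not pass the test. The study's criterion asks for a 1.5-fold change or more and a p of 0.05 or less, taken here as unadjusted. In edgeR's quasi-likelihood test 3 of 10 genes met it, against 21.2% of all tested genes, with 1 gene higher (9.54% of all tested genes) and 2 lower (11.7%). The groups did not overlap for 3 of 10 genes, the same ones, against 31.3% of all tested genes. These shares were thus not far from those of all genes. With Benjamini-Hochberg adjustment over every tested gene, edgeR gave 0 of 10 genes an adjusted p of at most 0.05 (0.00655% of all tested genes), while 3 had an unadjusted p of at most 0.05. DESeq2's Wald test gave 2 of 10, against 1961 of all 15257 genes, and limma-voom 0 of 10, against 2 of all genes. The median log2 fold change was 0.15 over the 10 genes and −0.034 over all tested genes. When libraries were scaled to total counts, the median of all genes moved to −0.16 and the criterion was met by 989 higher and 2448 lower genes in place of 1456 and 1785, and all 10 genes kept their direction.

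**Figure D1:**
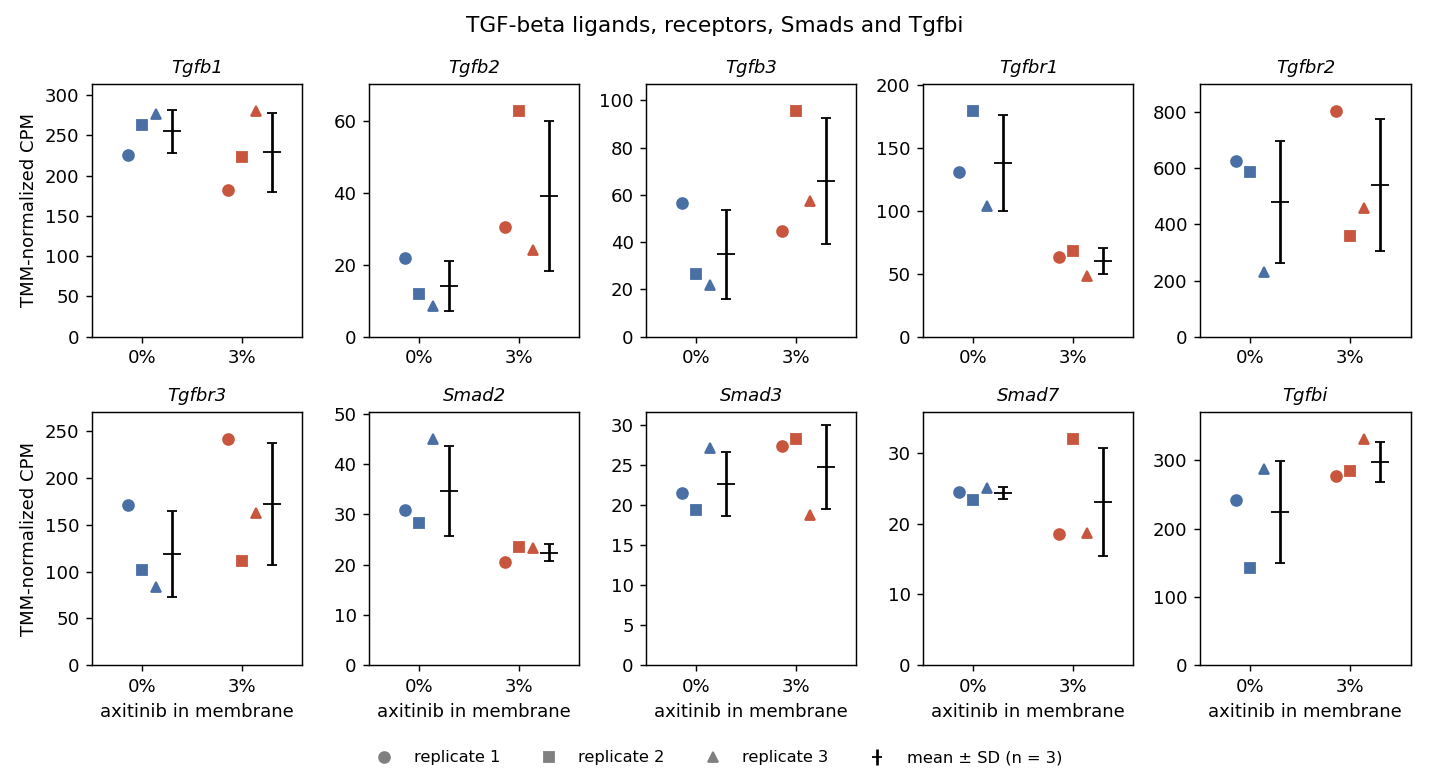
TMM-normalized CPM (linear axes from 0) of the 10 genes in each sample of the 0%-Axitinib (blue) and 3%-Axitinib (red) groups, with symbols for the replicate and black bars for the mean ± SD of 3 samples. The groups do not overlap for Tgfb2, Tgfbr1 and Smad2, and 3%-Axitinib replicate 2 has the highest values of Tgfb2 (63.0 CPM) and Tgfb3 (95.6 CPM).

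Among the ligands, Tgfb2 rose in the 3%-Axitinib group, and Tgfb1, the most abundant of them, did not pass the test. Tgfb1, abundant in platelets and leukocytes, acts in wound repair and immune control (chromosome 7 from 25687002 to 25705077 of GRCm38, plus strand). It stood at 225, 263 and 276 CPM in the 0%-Axitinib samples and at 182, 223 and 280 CPM in the 3%-Axitinib samples. The groups overlapped, with both the lowest and the highest value in the 3%-Axitinib group. Tgfb1 had a log2 fold change of −0.16 with a standard error of 0.24 (edgeR, Benjamini-Hochberg adjusted p = 0.720).

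Tgfb2, a ligand with roles in the heart and skeleton of the embryo and in connective tissue, lies on chromosome 1 from 186622792 to 186705989 on the minus strand. It stood at 22.0, 11.8 and 8.42 CPM in the 0%-Axitinib samples and at 30.6, 63.0 and 24.1 CPM in the 3%-Axitinib samples. All 3 samples with the drug lay above all 3 without it, by a narrow margin between 3%-Axitinib replicate 3 and 0%-Axitinib replicate 1, and replicate 2 of the 3%-Axitinib group stood far above the rest. The expression was 2.78-fold higher, a log2 fold change of 1.48 with a standard error of 0.49 (edgeR, Benjamini-Hochberg adjusted p = 0.145). Without 3%-Axitinib replicate 2, the sample with the most cartilage RNA, it was 0.95, and without 0%-Axitinib replicate 2 it was 1.36, and neither fit met the criterion. With DESeq2's Wald test the adjusted p of Tgfb2 was 0.0365, and over all alternatives it ranged from 0.0365 to 0.714.

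Tgfb3, the ligand needed for closure of the palate in the embryo, lies on chromosome 12 from 86056745 to 86079041 on the minus strand. Its values were 56.5, 26.4 and 21.8 CPM in the 0%-Axitinib group and 44.7, 95.6 and 57.3 CPM in the 3%-Axitinib group. The groups overlapped, because 0%-Axitinib replicate 1 lay above 3%-Axitinib replicate 1 and close to replicate 3. A log2 fold change of 0.92 with a standard error of 0.44 was found (edgeR, Benjamini-Hochberg adjusted p = 0.255). Leaving out 0%-Axitinib replicate 1 gave 1.45, which met the criterion, and leaving out 3%-Axitinib replicate 2 gave 0.54, which did not. Both Tgfb2 and Tgfb3 overlap genes on the other strand, which are Gm26169 and Gm29491 for Tgfb2 and Ttll5, Gm37804 and Gm48008 for Tgfb3. Whether counting used the strand is not given in the sources used here, so reads of these partners may be among theirs.

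Levels of different genes were compared as CPM per kilobase of exon. On this scale Tgfb1 made up 68.5%, 84.1% and 87.4% of the summed ligands in the 0%-Axitinib samples and 66.2%, 53.1% and 72.5% in the 3%-Axitinib samples. Its mean share was 80.0% ± 10.1 (SD, n = 3) and 63.9% ± 9.90 (SD, n = 3), and the groups overlapped, since 0%-Axitinib replicate 1 lay below 3%-Axitinib replicate 3. Tgfb2 contributed 5.83%, 3.30% and 2.32% of the ligands in the 0%-Axitinib samples and 9.66%, 13.0% and 5.43% in the others. Tgfb3 contributed 25.6%, 12.6% and 10.3% and then 24.1%, 33.9% and 22.1%. Both shares overlapped through 0%-Axitinib replicate 1, the sample of its group with the smallest share of Tgfb1. Tgfb1 was the ligand with the largest share in 6 of 6 samples.

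**Figure D2:**
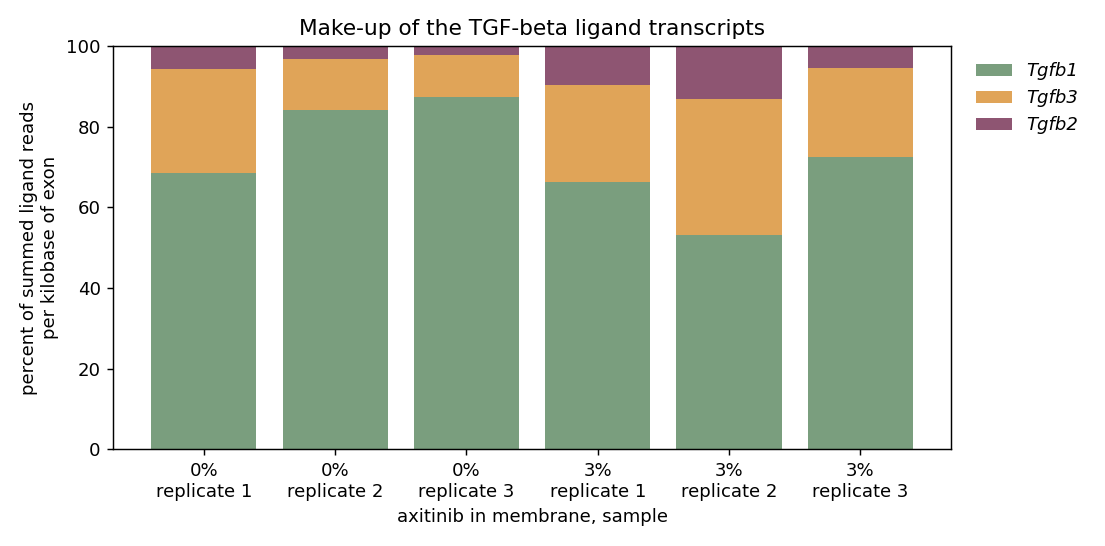
Percent of the summed reads per kilobase of exon of Tgfb1 (green), Tgfb3 (orange) and Tgfb2 (purple) in each of the 6 samples, stacked to 100%. Tgfb1 is the largest part of every bar, from 53.1% in 3%-Axitinib replicate 2 to 87.4% in 0%-Axitinib replicate 3.

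The genes whose profile over the 6 samples was nearest to each ligand were sought among 9953 genes with a mean of at least 10 CPM, by the root mean square difference of log2 CPM after centring each gene. For Tgfb1 these were Nup50 (0.0714), Atp6v0e (0.0750) and Hk1 (0.0778). Nup50 encodes a nuclear pore protein, Atp6v0e a subunit of the vacuolar proton pump and Hk1 a hexokinase. Nearest to Tgfb2 were Col16a1 (0.109), which encodes a fibril-associated collagen, 3632451O06Rik (0.116) and Ltbp2 (0.145), which encodes a matrix protein related to the latent TGF-β binding proteins. Col16a1 stood at 247, 140 and 88.2 CPM without the drug and at 349, 591 and 275 CPM with it. The profile of Tgfb3 was nearest to those of Slc22a17 (0.104), the Wnt ligand gene Wnt9a (0.167) and the glutathione transferase gene Gsta3 (0.187).

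Among the receptors, Tgfbr1 fell and neither Tgfbr2 nor Tgfbr3 passed the test. Tgfbr1, the type I receptor kinase that phosphorylates Smad2 and Smad3, lies on chromosome 4 from 47353222 to 47414931 on the plus strand. It stood at 131, 179 and 104 CPM in the 0%-Axitinib samples and at 63.6, 68.0 and 48.5 CPM in the 3%-Axitinib samples. The groups were well separated, with the lowest sample without the drug above the highest with it. Expression of Tgfbr1 was 2.30-fold lower, a log2 fold change of −1.20 with a standard error of 0.26 (edgeR, Benjamini-Hochberg adjusted p = 0.0972). Across the fits without single samples it lay between −1.37 and −0.97, and it met the criterion in each of them. The adjusted p of Tgfbr1 was 0.00260 with DESeq2's Wald test and 0.0379 in edgeR without 0%-Axitinib replicate 3, and over all alternatives it ranged from 0.00260 to 0.714. When both 3%-Axitinib samples with skeletal muscle RNA were left out, a choice made after seeing the data, the value was −1.03 and did not meet the criterion, with a lone sample that was assumed to vary like those of the other group.

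Tgfbr2, the type II receptor that binds the free ligand, lies on chromosome 9 from 116084293 to 116175360 on the minus strand. Its values were 626, 585 and 229 CPM in the 0%-Axitinib group and 804, 357 and 459 CPM in the 3%-Axitinib group. The spread within each group was wide, the groups overlapped, and the lowest value belonged to 0%-Axitinib replicate 3, the sample with the erythroid RNA. For Tgfbr2 the log2 fold change was 0.17 with a standard error of 0.48 (edgeR, Benjamini-Hochberg adjusted p = 0.850). It turned to −0.17 without that sample and to −0.24 without 3%-Axitinib replicate 1.

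Tgfbr3, or betaglycan, is a coreceptor that presents ligands, Tgfb2 above all, to the type II receptor. It lies on chromosome 5 from 107106570 to 107289629 on the minus strand, where it overlaps Gm42900, Gm43422 and Gm43423 on the same strand and Gm8145 on the other. It stood at 171, 102 and 83.3 CPM in the 0%-Axitinib samples and at 241, 112 and 163 CPM in the 3%-Axitinib samples. The groups overlapped through 0%-Axitinib replicate 1, which was also the sample of its group with the highest fibroblast sum. Betaglycan had a log2 fold change of 0.53 with a standard error of 0.38 (edgeR, Benjamini-Hochberg adjusted p = 0.418). With 3%-Axitinib replicate 1 left out it fell to 0.21, with 0%-Axitinib replicate 3 left out to 0.33, and with 0%-Axitinib replicate 1 left out it rose to 0.89.

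Ratios between genes within a sample do not depend on how libraries are scaled. Per kilobase, Tgfbr2 exceeded Tgfbr1 by ratios of 3.82, 2.60 and 1.76 in the 0%-Axitinib samples and of 10.1, 4.19 and 7.55 in the 3%-Axitinib samples. The mean ratio was 2.73 ± 1.03 (SD, n = 3) without the drug and 7.28 ± 2.96 (SD, n = 3) with it, and the groups did not overlap. Tgfbr1 accounted for 16.3%, 24.0% and 28.0% of the summed receptors in the 0%-Axitinib samples and for 6.72%, 14.6% and 8.40% in the 3%-Axitinib samples. Tgfbr3 accounted for 21.3%, 13.6% and 22.5% and then for 25.4%, 24.0% and 28.2%. The groups overlapped in neither of these shares. They overlapped in that of Tgfbr2, which was 62.3%, 62.4% and 49.5% without and 67.8%, 61.3% and 63.4% with the drug, and since shares of a sum depend on each other they are not separate results.

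Of Smad2, Smad3 and Smad7, only Smad2 met the criterion, and its fall was smaller and less stable than that of Tgfbr1. Smad2, which the type I receptor activates, lies on chromosome 18. It stood at 30.9, 28.2 and 44.9 CPM in the 0%-Axitinib samples and at 20.5, 23.4 and 23.3 CPM in the 3%-Axitinib samples. All samples with the drug lay below all samples without it, and 0%-Axitinib replicate 3 was the highest. The expression was 1.55-fold lower, a log2 fold change of −0.63 with a standard error of 0.23 (edgeR, Benjamini-Hochberg adjusted p = 0.174). Without 0%-Axitinib replicate 3 it was −0.40, below the fold that the criterion asks for. Leaving out 3%-Axitinib replicate 1, 2 or 3 gave −0.56, −0.66 and −0.66 with an unadjusted p above the criterion, so that it was met only without 0%-Axitinib replicate 1 or 2 among these fits.

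Smad3, the other Smad that the receptor activates, binds DNA directly, unlike the main form of Smad2, and lies on chromosome 9 from 63646767 to 63757994 on the minus strand. Its values were 21.5, 19.4 and 27.1 CPM in the 0%-Axitinib group and 27.4, 28.2 and 18.8 CPM in the 3%-Axitinib group. The groups overlapped and both extremes were 3%-Axitinib samples. Smad3 had a log2 fold change of 0.13 with a standard error of 0.25 (edgeR, Benjamini-Hochberg adjusted p = 0.781). Smad7, an inhibitory Smad that the pathway induces and that acts on the type I receptor, also lies on chromosome 18. Its values were 24.5, 23.4 and 25.0 CPM without the drug, a narrow range, and 18.6, 31.9 and 18.7 CPM with it, on both sides of that range. For Smad7 the log2 fold change was −0.075 with a standard error of 0.26 (edgeR, Benjamini-Hochberg adjusted p = 0.882).

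Per kilobase, the ratio of Smad2 to Smad3 was 0.905, 0.917 and 1.05 in the 0%-Axitinib samples and 0.471, 0.523 and 0.785 in the 3%-Axitinib samples. Its mean was 0.956 ± 0.078 (SD, n = 3) and 0.593 ± 0.168 (SD, n = 3), and the groups did not overlap. Smad2 was thus below Smad3 in every sample with the drug and, by less, in 0%-Axitinib replicates 1 and 2.

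Tgfbi encodes a secreted matrix protein that binds collagen and integrins and was first found as a gene induced by TGF-β. It lies on chromosome 13 from 56609523 to 56639562 on the plus strand. It stood at 242, 142 and 288 CPM in the 0%-Axitinib samples and at 277, 284 and 331 CPM in the 3%-Axitinib samples. The groups overlapped, and the lowest value was that of 0%-Axitinib replicate 2. Tgfbi had a log2 fold change of 0.41 with a standard error of 0.30 (edgeR, Benjamini-Hochberg adjusted p = 0.432).

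In the order of levels per kilobase, Tgfbi, Tgfbr2 and Tgfb1 came first in both groups. This order took the exons of all transcripts as length, 5042 bases for Tgfb1, whose longest transcript has 2573. Places may differ with another length, for which the order was not computed. In the 0%-Axitinib group Tgfbi had 59.5 ± 19.7 CPM per kilobase, Tgfbr2 58.6 ± 26.7 and Tgfb1 50.5 ± 5.26 (SD, n = 3), and their ranges overlapped. Tgfbr1 followed with 21.1 ± 5.88, Tgfbr3 with 18.1 ± 7.09 and Tgfb3 with 10.3 ± 5.56 CPM per kilobase. At the lower end were Smad7 (5.37 ± 0.18), Smad3 (4.09 ± 0.72), Smad2 (3.95 ± 1.02) and Tgfb2 (2.43 ± 1.22). Between neighbours in this order, the samples did not overlap only for Tgfb1 and Tgfbr1, Tgfb3 and Smad7, and Smad7 and Smad3. In the 3%-Axitinib group the first places were held by Tgfbi with 78.9 ± 7.74, Tgfbr2 with 66.0 ± 28.6 and Tgfb1 with 45.3 ± 9.75 CPM per kilobase (SD, n = 3). Next came Tgfbr3 with 26.3 ± 9.96, Tgfb3 with 19.5 ± 7.84 and Tgfbr1 with 9.19 ± 1.56, which moved from place 4 to place 6. Tgfb2 (6.77 ± 3.59) moved from place 10 to place 7, above Smad7 (5.10 ± 1.69), Smad3 (4.47 ± 0.95) and Smad2 (2.55 ± 0.19). Neighbours did not overlap here only for Tgfb3 and Tgfbr1 and for Smad3 and Smad2.

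The other genes of the pathway were described by lists written from general knowledge. Of 30 known target genes, all tested, 8 were higher and 0 lower in the 3%-Axitinib group, against 9.54% and 11.7% of all tested genes. The groups did not overlap for 7 of the 30, not all of which met the criterion, against 31.3% of all tested genes, and 24 of 30 had a positive log2 fold change. The median was 0.85, against −0.034 over all tested genes, and became 0.43 with 3%-Axitinib replicate 2 left out, 0.44 with 0%-Axitinib replicate 3 left out and 1.23 with 0%-Axitinib replicate 1 left out. Target genes answer to other signals as well, and Ltbp2, Thbs1, Pmepa1, Skil and Tgif1 are also in a list described below and Comp in the cartilage list. The number of higher genes was 4 with total counts, 4 without 0%-Axitinib replicate 2, 4 without 3%-Axitinib replicate 2 (when 1 was lower), and 11 without the 3%-Axitinib samples with skeletal muscle RNA. The part of the cartilage and fibroblast RNA in this count was not tested beyond these fits.

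Snai1, a repressor active in epithelial to mesenchymal transition, stood at 22.1, 12.2 and 12.3 CPM in the 0%-Axitinib samples and at 47.2, 99.5 and 36.5 CPM in the 3%-Axitinib samples. Its log2 fold change was 1.97 with a standard error of 0.44 (edgeR, Benjamini-Hochberg adjusted p = 0.0972). Lox, which encodes the lysyl oxidase that crosslinks collagen, stood at 174, 177 and 91.0 CPM and at 567, 874 and 240 CPM, a log2 fold change of 1.93 with a standard error of 0.52 (edgeR, Benjamini-Hochberg adjusted p = 0.111). Ctgf, a matricellular protein gene now also called Ccn2, stood at 174, 97.8 and 79.2 CPM and at 459, 418 and 226 CPM, a log2 fold change of 1.65 with a standard error of 0.41 (edgeR, Benjamini-Hochberg adjusted p = 0.100). For each of Snai1, Lox and Ctgf the groups did not overlap and the criterion was met in 15 of 15 alternatives.

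Col1a1, the most abundant target gene, encodes a chain of type I collagen. It stood at 7130, 3236 and 3181 CPM in the 0%-Axitinib samples and at 6774, 30639 and 9337 CPM in the 3%-Axitinib samples. The groups overlapped, and 3%-Axitinib replicate 2 stood far above all others. Col1a1 had a log2 fold change of 1.79 with a standard error of 0.72 (edgeR, Benjamini-Hochberg adjusted p = 0.195), and without that sample it was 0.83 and did not meet the criterion. Ltbp2 stood at 355, 176 and 101 CPM and at 409, 970 and 339 CPM, with its highest value in the same sample. Its log2 fold change was 1.44 with a standard error of 0.59 (edgeR, Benjamini-Hochberg adjusted p = 0.200) and fell to 0.82 without that sample, also short of the criterion, while it was 2.04 without 0%-Axitinib replicate 1. The criterion was lost for both also without 0%-Axitinib replicate 2 (1.59 and 1.32) or replicate 3 (1.58 and 1.10), for Col1a1 without 3%-Axitinib replicate 3 (2.04) and for Ltbp2 without 3%-Axitinib replicate 1 (1.62). Total counts lost both as well, and the replicate number as a block lost Col1a1 (1.57).

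**Figure D3:**
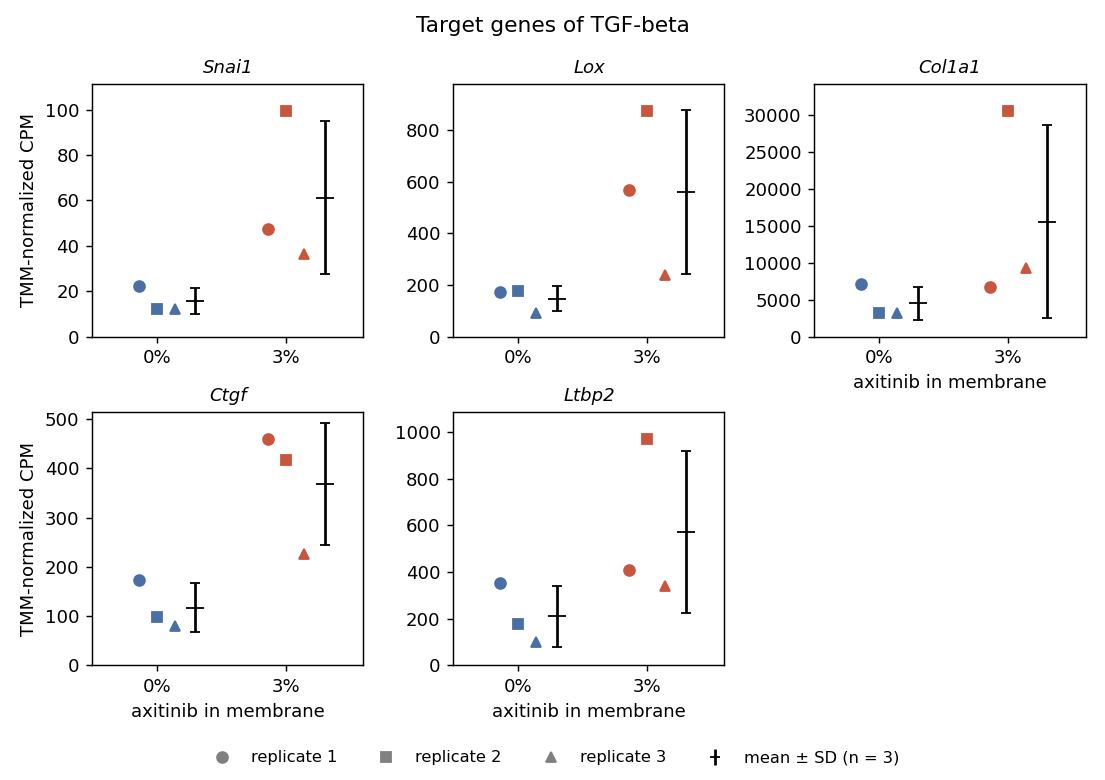
TMM-normalized CPM (linear axes from 0) of 5 target genes of TGF-β in each sample of the 0%-Axitinib (blue) and 3%-Axitinib (red) groups, with symbols for the replicate and black bars for the mean ± SD of 3 samples. The groups do not overlap for Snai1, Lox and Ctgf, while Col1a1 (30639 CPM) and Ltbp2 (970 CPM) are highest in 3%-Axitinib replicate 2 and overlap between groups.

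A list for latency and activation of the ligand held 19 genes, among them matrix proteoglycans that need not hold it latent or release it. Of the 19, 18 were tested (Itgb6 had too few reads). In this list 3 were higher and 1 was lower (9.54% and 11.7% of all tested genes), and the log2 fold changes had a median of 0.51. That became 0.19 with 0%-Axitinib replicate 3 left out, 0.32 with 3%-Axitinib replicate 2 left out and 0.92 with 0%-Axitinib replicate 1 left out. The groups did not overlap for 5 of the 18, near the 31.3% of all tested genes. Dcn is in the fibroblast list too. Fmod, a small proteoglycan of collagen fibrils, stood at 336, 94.9 and 82.7 CPM in the 0%-Axitinib samples and at 601, 959 and 313 CPM in the 3%-Axitinib samples. It had a log2 fold change of 1.87 with a standard error of 0.67, and the groups overlapped through 0%-Axitinib replicate 1. Without that sample it was 2.81, and without 3%-Axitinib replicate 2 it was 1.40 and did not meet the criterion. Emilin1, which encodes an elastic fibre protein that restrains processing of the TGF-β1 precursor, stood at 124, 114 and 62.4 CPM and at 155, 272 and 151 CPM. Its log2 fold change was 0.95 with a standard error of 0.36, and the groups did not overlap. Without 3%-Axitinib replicate 2 it was 0.62 and did not meet the criterion. The remaining higher gene was Ltbp2. Itgav, the integrin αV chain that takes part in releasing the ligand, fell from 124, 134 and 91.5 CPM to 65.5, 86.6 and 33.9 CPM, a log2 fold change of −0.91 with a standard error of 0.36. The most abundant gene was Bgn, the proteoglycan biglycan, with 1474 ± 747 CPM without and 3009 ± 896 CPM with the drug (SD, n = 3). Without 0%-Axitinib replicate 2, 0 genes were higher and 0 lower, although the log2 fold changes of Fmod (1.57), Emilin1 (1.05), Ltbp2 (1.32) and Itgav (−0.80) stayed near those with all samples. The numbers were 0 and 2 without 0%-Axitinib replicate 3, 6 and 0 without 0%-Axitinib replicate 1, 1 and 0 without 3%-Axitinib replicate 1 (Emilin1), and 1 and 1 without 3%-Axitinib replicate 2, where the higher gene was Ltbp4, named after its values were seen. With total counts 1 gene was higher and 1 lower. Itgav also lost the criterion without 0%-Axitinib replicate 1 (−0.87) or 3%-Axitinib replicate 1 (−0.95) or 3 (−0.62). Without the 3%-Axitinib samples with skeletal muscle RNA, which left a lone sample in that group, the log2 fold change of Itgav was −0.44.

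In the activin branch, whose ligands also act through Smad2 and Smad3, 9 of 12 genes were tested (Mstn, Nodal and Acvr1c had too few reads). Of these, 3 were higher and 0 lower (9.54% and 11.7% of all tested genes), and the log2 fold changes had a median of 0.37. That median was 0.68, 0.62 and 0.64 without 0%-Axitinib replicate 1, 2 and 3, each over 10 tested genes, and 0.68 over 9 without 3%-Axitinib replicate 3. It was lower with limma-voom (0.22) and with total counts (0.24), each over 9 genes. For 3 of the 9 the groups did not overlap, near the 31.3% of all tested genes. Inha, the inhibin α subunit, stood at 3.86, 2.33 and 1.79 CPM in the 0%-Axitinib samples and at 7.92, 15.9 and 9.38 CPM in the 3%-Axitinib samples. It was low in every sample but separated the groups, with a log2 fold change of 2.05 and a standard error of 0.44 (edgeR, Benjamini-Hochberg adjusted p = 0.0972), and it met the criterion in 15 of 15 alternatives. The other higher genes encode secreted antagonists of activin. Fstl3 stood at 4.23, 2.86 and 0.978 CPM and at 7.92, 6.92 and 5.67 CPM, a log2 fold change of 1.34 with a standard error of 0.54. Fst stood at 19.9, 12.9 and 18.7 CPM and at 44.8, 44.7 and 17.4 CPM, a log2 fold change of 1.05 with a standard error of 0.40, and here 3%-Axitinib replicate 3 lay within the other group. The most abundant gene was Inhbb, an activin subunit, with 60.4 ± 22.4 and 60.5 ± 22.2 CPM (SD, n = 3). Without 0%-Axitinib replicate 2, without 3%-Axitinib replicate 1 or with total counts 1 gene was higher. Fst lost the criterion without 0%-Axitinib replicate 2 (0.88) or 3%-Axitinib replicate 1 or 2 (both 0.85). It was also lost for Fst with limma-voom (0.89) and with the replicate number as a block (0.96). Fstl3 lost it without 0%-Axitinib replicate 2 (1.38) and without each 3%-Axitinib sample in turn (1.22, 1.32 and 1.45), at fold changes close to that with all samples.

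Of 6 accessory receptors, among them the endothelial type I receptor Acvrl1 and the endothelial coreceptor Eng, 0 met the criterion in either direction in edgeR, and none had an unadjusted p of at most 0.05. DESeq2, limma-voom, the stricter filter on counts and edgeR without 0%-Axitinib replicate 2 or 3 each gave 1 higher. The median log2 fold change was 0.061, with −0.15 without 0%-Axitinib replicate 3 and 0.25 without 0%-Axitinib replicate 1, and for 1 of the 6 the groups did not overlap, against 31.3% of all tested genes. Eng, the most abundant, had 169 ± 40.8 CPM without and 168 ± 29.6 CPM with the drug (SD, n = 3), beside the lower endothelial markers given above.

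Among 23 other Smads and regulators, all tested, 3 were higher and 2 lower, near the 9.54% and 11.7% of all tested genes, and the log2 fold changes had a median of −0.052, from −0.23 without 0%-Axitinib replicate 3 to 0.044 without 0%-Axitinib replicate 2. For 10 of the 23 the groups did not overlap, against 31.3% of all tested genes. Ep300, a histone acetyltransferase that serves as a coactivator of Smads, fell from 68.2, 74.2 and 88.6 CPM to 45.5, 41.7 and 42.5 CPM. Ep300 had a log2 fold change of −0.83 with a standard error of 0.17 (edgeR, Benjamini-Hochberg adjusted p = 0.0965), and the criterion was met in 15 of 15 alternatives. Smad1, which transmits BMP signals, fell from 45.4, 39.4 and 51.4 CPM to 28.5, 26.9 and 22.4 CPM, a log2 fold change of −0.81 with a standard error of 0.19 (edgeR, Benjamini-Hochberg adjusted p = 0.0989). The groups did not overlap for either gene, and Smad1 lost the criterion only without the samples with skeletal muscle RNA (−0.76).

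Of the 3 higher regulators, Tgfb1i1, also called Hic-5, a focal adhesion protein induced by TGF-β1, stood at 10.2, 5.66 and 7.44 CPM and at 17.7, 22.4 and 15.1 CPM. The groups did not overlap, the log2 fold change was 1.24 with a standard error of 0.31 (edgeR, Benjamini-Hochberg adjusted p = 0.102), and 15 of 15 alternatives met the criterion. Pmepa1, a target that feeds back on Smad activation, stood at 129, 56.5 and 99.3 CPM and at 182, 243 and 125 CPM, a log2 fold change of 0.95 with a standard error of 0.38 and with overlapping groups. Smad9, a further BMP Smad, was near the limit of detection at 0.887, 1.05 and 0.597 CPM and at 1.54, 4.19 and 1.39 CPM, with a log2 fold change of 1.48 and a standard error of 0.57. Without 3%-Axitinib replicate 2 it was 0.79. Smad9 also lost the criterion without each 0%-Axitinib sample in turn, at 1.51, 1.66 and 1.28. The criterion was also missed for Smad9 with limma-voom (1.28), total counts (1.34), no filter (1.44) and the replicate number as a block (1.34). Pmepa1 lost it without 0%-Axitinib replicate 2 (0.68) or 3 (0.98) and when 3%-Axitinib replicate 1 (0.95) or 2 (0.69) was left out. With the replicate number as a block (0.96) or total counts (0.81), Pmepa1 lost it as well. Fkbp1a, which encodes a protein that binds the type I receptor and was the most abundant gene of this list, stood at 327 ± 9.18 CPM without and 381 ± 14.6 CPM with the drug (SD, n = 3). In this list 1 gene was higher with total counts and without 0%-Axitinib replicate 2, 0%-Axitinib replicate 3 or 3%-Axitinib replicate 2.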

How the data were processed

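The authors filtered reads with fastp, aligned them to the mouse genome (mm10, GRCm38) with STAR (2.5.2b per the submitters' processing notes) and deposited unnormalized read counts per gene for the 6 samples. The annotation release and the strand setting are not given in the sources used here. Of the lines, 48440 were genes, and 4 held reads given to no gene (unmapped, multimapping, outside genes, ambiguous) and entered neither library sizes nor tests. The analysis used edgeR 4.0.16 (R 4.3.3) with filterByExpr (minimum count 10, minimum total 15), TMM, the quasi-likelihood test and Benjamini-Hochberg adjustment over all 15257 tested genes. The floor of 3 counts covers only counting error, because without molecular identifiers reads may be copies of the same molecule. Positions and exon lengths came from GENCODE M21 (216 of 218 listed genes matched by symbol, Ctgf and Lect1 did not). Pathway and marker lists were written from general knowledge, and the genes and lists were chosen with earlier results of these data known. Named were all 10 genes, of each pathway list the most abundant tested gene and up to 6 with the largest absolute log2 fold change among those that met the criterion with a mean of at least 1 CPM, and the 3 nearest profiles of each ligand. Of these, 1 target gene is not reported here by name or value. Other genes named for overlap, list membership or too few reads were named for that alone. Alternatives were DESeq2 size factors, total counts, TMM without skeletal muscle genes, DESeq2 1.42.0, limma-voom (limma 3.58.1), no filter, at least 10 counts in every sample, a fold change of 2, the replicate number as a block, each sample left out, and other gene lengths. Leaving out the 3%-Axitinib samples with over 1000 summed CPM of the skeletal muscle list was added after seeing the data. The fits were tested on simulated data. Figures were drawn with matplotlib 3.10.9 (Python 3.11.15).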

Additional observations from a re-analysis of the deposited data

Results flagged for a closer look

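Reads that could not be mapped, which no comparison used, made up 5.47%, 3.84% and 14.9% of the reads in the 0%-Axitinib samples and 48.4%, 29.2% and 16.8% in the 3%-Axitinib samples, and their mean of 31.5% ± 15.9 (SD, n = 3) in the 3%-Axitinib group stood above the 8.08% ± 5.99 (SD, n = 3) of the 0%-Axitinib group. Their species and their part in the results were not tested.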

How the results depend on the processing

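Tgfb2, Tgfbr1 and Smad2 met the criterion under each alternative scaling, test and filter. Genes that passed the adjusted threshold of 0.05, 1 in edgeR, numbered 1961 with DESeq2's Wald test, 2 with limma-voom and 15 without the filter, and from 0 to 1252 when single samples were left out in edgeR (1252 without 0%-Axitinib replicate 3, 58 without 3%-Axitinib replicate 2). In the fits with 0, unadjusted p-values of at most 0.05 numbered from 2417 to 3513. At a fold change of at least 2, 1951 genes met the criterion, among them Tgfb2 and Tgfbr1. Of the 10 genes, 1 to 4 met it when single samples were left out, with 1 (Tgfbr1) without 3%-Axitinib replicate 2. Without the 3%-Axitinib samples with skeletal muscle RNA, 1166 genes met the criterion and as many had an unadjusted p of at most 0.05, 0 passed the adjusted threshold in edgeR, and 1 of the 10 (Tgfb2) met it, with a lone sample in that group. There Tgfbr2 turned to −0.45, Tgfbr3 to −0.11 and Smad7 to 0.38 on the log2 scale. Over the fits without single samples, Tgfbr2 ranged from −0.24 to 0.40 and Smad7 from −0.38 to 0.061, while Tgfb1 (−0.33 to −0.0094), Smad3 (0.023 to 0.29) and Tgfbi (0.16 to 0.62) kept their direction. These fits had fewer samples, and the cause of the changes of sign was not tested. With the longest transcript as length, Tgfb1 made up 76.8% of the ligands in the 3%-Axitinib group. With the replicate number as a block, 2 genes passed the adjusted threshold, and Tgfb2 and Tgfbr1 but not Smad2 met the criterion. Samples with the same number did not deviate together (correlations of 0.18, −0.12 and −0.17 across genes), so the numbers were not taken to pair them. Among the genes with a fold change in the text, Smad9, Fstl3 and Inha had the lowest mean CPM, and 3 samples a group limit all comparisons.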
